A study of Homo sapiens with 6 samples.

Results

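Intergenic reChIP regions are stretches of the genome that came through a sequential chromatin immunoprecipitation for H3K4me3 and H2AK119ub but lie outside protein-coding genes and away from annotated transcript starts. They were found by merging all peaks of 5 or more reads from the 4 reChIP libraries on the 22 autosomes and X, and by keeping the merged regions that overlapped no protein-coding gene body of GENCODE v44 and lay over 1500 bp from the start of every annotated transcript of any biotype. This gave 4948 regions of 28798 merged regions (17.2%, 95% exact binomial interval 16.7% to 17.6%), which together covered 3.10 Mb. The other merged regions were 17849 within 1500 bp of a protein-coding start, 2521 within 1500 bp of only a noncoding start and 3480 inside protein-coding gene bodies. The regions were thus chosen by their own read counts. Intervals here and below cover counting error only.

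The cells were parental NCI-H661, a SMARCA4-deficient line from a large cell carcinoma of the lung, with no treatment or genetic change made for this experiment, and all libraries came from this 1 line. K4-K119 libraries were precipitated with anti-H3K4me3 and then with anti-H2AK119ub, K119-K4 libraries in the reverse order, and IgG-IgG libraries with control immunoglobulin in both steps, with 2 replicates of each of the 3 conditions. The authors called peaks in each library with EPIC2 against genomic input in bins of 100 bp, and each deposited peak carries its read count, the input read count, a log2 fold and a false discovery rate.

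H3K4me3 is the histone mark of active and poised promoters and is laid down by SET1 and MLL complexes, some of whose subunits bind unmethylated CpG. H2AK119ub is laid down by Polycomb repressive complex 1, and the KDM2B subunit of a variant complex binds the same kind of DNA. CpG islands that lie far from annotated promoters, called orphan islands, can carry both marks, and tRNA genes, which RNA polymerase III transcribes from an internal A box and B box, are often flanked by H3K4me3. In a sequential precipitation, a fragment is recovered only if it carries both antigens or passes one or both of the steps nonspecifically.

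The libraries were not alike. K4-K119 replicate 1 listed 24802 peaks of 5 or more reads, against 10220 in its replicate 2, 11946 and 9732 in K119-K4 replicates 1 and 2, and 48 and 40 in IgG-IgG replicates 1 and 2. Reads in all listed peaks came to 1976659 and 915697 in K4-K119, 1579451 and 865055 in K119-K4, and 58884 and 65300 in IgG-IgG. Of the intergenic regions with a listed peak in K4-K119 replicate 1, 11.4% held no input read there, whereas 80.1% did so in K4-K119 replicate 2 and 82.7% and 88.9% did so in K119-K4 replicates 1 and 2. The main results that rest on K4-K119 replicate 1 are therefore given with and without it.

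Sequences of 4 regions contrast CpG-rich regions seen in all 4 libraries with a CpG-poor region seen in 1. The first pair comes from the strongest regions seen in all 4 libraries, where capitals mark a short GC-rich repeat unit, read on either strand, that recurs through both. In the other pair, capitals mark every CpG. The GRIN1 sequence is the CpG-richest 300 bp of a region upstream of that gene, and the LHX8 sequence is a whole region of 300 bp near LHX8, seen in K119-K4 replicate 2 alone. All are from hg38, 5′ to 3′ on the + strand.
chr2:90325272-90325571 (nearest gene RPIA): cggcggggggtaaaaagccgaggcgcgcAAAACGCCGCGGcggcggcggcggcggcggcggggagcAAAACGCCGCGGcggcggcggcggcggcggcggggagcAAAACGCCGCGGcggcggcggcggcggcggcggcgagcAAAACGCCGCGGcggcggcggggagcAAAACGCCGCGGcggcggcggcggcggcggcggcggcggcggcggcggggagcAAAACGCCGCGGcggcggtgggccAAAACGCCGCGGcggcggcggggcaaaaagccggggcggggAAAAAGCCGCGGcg
chr1:144883504-144883803 (nearest gene SRGAP2B): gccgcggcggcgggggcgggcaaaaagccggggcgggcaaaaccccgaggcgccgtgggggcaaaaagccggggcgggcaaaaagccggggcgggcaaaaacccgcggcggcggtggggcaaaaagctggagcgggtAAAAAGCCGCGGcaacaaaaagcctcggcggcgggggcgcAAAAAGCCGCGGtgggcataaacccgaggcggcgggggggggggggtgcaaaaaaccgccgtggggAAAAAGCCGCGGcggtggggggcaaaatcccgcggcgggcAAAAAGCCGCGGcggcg
chr9:137129728-137130027 (nearest gene GRIN1): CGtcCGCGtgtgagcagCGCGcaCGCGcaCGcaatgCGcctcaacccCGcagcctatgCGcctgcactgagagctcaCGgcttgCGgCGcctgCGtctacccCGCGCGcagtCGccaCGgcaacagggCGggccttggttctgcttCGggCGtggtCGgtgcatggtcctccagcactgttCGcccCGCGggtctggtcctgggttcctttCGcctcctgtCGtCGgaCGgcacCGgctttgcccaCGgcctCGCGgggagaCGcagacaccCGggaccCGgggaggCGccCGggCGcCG
chr1:75191301-75191600 (nearest gene LHX8): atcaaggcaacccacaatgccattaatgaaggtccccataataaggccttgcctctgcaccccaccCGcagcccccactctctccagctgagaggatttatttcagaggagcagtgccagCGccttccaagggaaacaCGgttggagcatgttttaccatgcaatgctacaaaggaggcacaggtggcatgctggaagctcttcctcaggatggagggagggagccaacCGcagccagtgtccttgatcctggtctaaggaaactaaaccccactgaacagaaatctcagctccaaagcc
The RPIA and SRGAP2B windows held 73 and 42 CpG, the GRIN1 window held 42, and the LHX8 region held 4. The RPIA and SRGAP2B windows were also the CpG-richest 300 bp of their regions, whereas the LHX8 region is whole. Regions of K119-K4 replicate 2 alone had a median of 1.2 CpG per 100 bp, and those of K4-K119 replicate 1 alone had 4.

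Support was narrow. A peak of 5 or more reads was present in 1 library at 4422 intergenic regions (89.4%, interval 88.5% to 90.2%), in 2 libraries at 310, in 3 at 148 and in all 4 at 68 (1.37%, interval 1.07% to 1.74%). Of the regions at protein-coding starts, 43.0% had such a peak in 1 library and 30.3% in all 4, whereas of the regions in gene bodies 93.2% had one in 1 library and 1.26% in all 4. Since the 5-read minimum chose the regions, these shares describe the set and were not tested. They also followed read number. With a highest peak of 5 to 9 reads, 98.2% of intergenic and 96.4% of protein-coding start regions had 1 library. These shares were 87.1% and 82.8% at 10 to 19 reads, 67.4% and 57.1% at 20 to 49, and 36.9% and 13.5% at 50 or more. K4-K119 replicate 1 alone accounted for 2300 regions, K4-K119 replicate 2 alone for 464, and K119-K4 replicates 1 and 2 alone for 595 and 1063. Both K4-K119 replicates had a peak at 306 regions (6.18%) and both K119-K4 replicates at 102 (2.06%). When any listed peak was accepted as support, whatever its reads, 148 regions (2.99%) had one in all 4 libraries. Without K4-K119 replicate 1, the rule found 2684 intergenic regions, and 2.65% of them had a peak in all 3 remaining libraries.

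Most intergenic regions stood on few reads. The highest peak had exactly 5 reads at 1701 regions (34.4%), exactly 6 at 838 and exactly 7 at 369, and 10 or more at 1536 (31.0%). Just below the minimum, peaks of exactly 4 reads formed 18704 further merged regions outside those analyzed, of which 8166 (43.7%) were intergenic by the same annotation. At the other limit, the 5 nearest regions inside the rule lay 1501, 1503, 1505, 1505 and 1506 bp from a start, and the 5 nearest outside lay at 1499, 1497, 1496, 1492 and 1490 bp. Among regions with a peak of 5 or more reads in the library concerned, the median was 10 reads in K4-K119 replicate 1 and 6 in replicate 2, and 6 and 5 reads in K119-K4 replicates 1 and 2. At protein-coding starts, the corresponding medians were 57, 61, 87 and 46 reads, and in gene bodies they were 8, 5, 5 and 5 reads. The intergenic regions were also narrower, with a median width of 500 bp against 1400 bp at protein-coding starts, 700 bp at noncoding starts and 500 bp in gene bodies.

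Reads at the 68 regions with a peak in every reChIP library ran over a wide range. In K4-K119 they ran between 11 and 620 reads with a median of 86 in replicate 1, and between 5 and 236 with a median of 36.5 in replicate 2. In K119-K4 they ran between 8 and 370 with a median of 56 in replicate 1, and between 5 and 115 with a median of 15.5 in replicate 2. IgG-IgG had a listed peak at 2 of the 68.

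CpG content was higher where more libraries had a peak. The median was 2.6 CpG per 100 bp over all intergenic regions, and 2.25 for those in 1 library, 5.55 in 2, 6.57 in 3 and 6.76 in 4. Regions at protein-coding starts had 5.75, regions at noncoding starts 4.80 and regions in gene bodies 2.00. A stretch of 200 bp with a GC content of at least 50% and an observed-to-expected CpG ratio of at least 0.6, called CpG-island-like here, was present in 37.5% of intergenic regions in 1 library, 87.7% in 2, 92.6% in 3 and 98.5% in 4 (67 of 68, interval 92.1% to 100.0%). Windows of the same width at 10 kb to either side had medians of 1 CpG per 100 bp and were CpG-island-like in 14.2% and 13.9% of cases. CpG density was above both flanking windows at 60.9% of all intergenic regions and at 92.6% of those in 4 libraries. CpG content also followed read number. With a highest peak of 5 to 9 reads, the median was 1.67 CpG per 100 bp and 24.2% were CpG-island-like. These values were 4.33 and 74.3% at 10 to 19 reads, 5.55 and 91.6% at 20 to 49, and 6.11 and 97.8% at 50 or more. Wider regions also hold more stretches of 200 bp. The parts that read number and width have in the rise with library number were not tested.

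**Figure D1:**
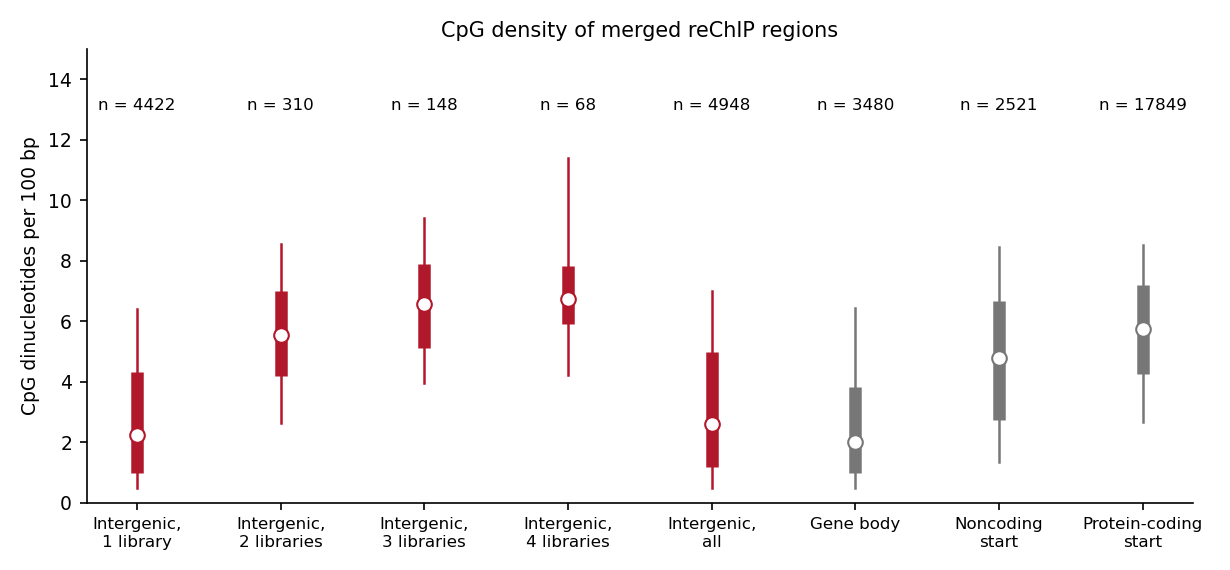
CpG dinucleotides per 100 bp in intergenic regions (red), by the number of reChIP libraries with a peak of 5 or more reads and for all together, and in the other classes of merged regions (gray). Circles are medians, thick bars the 25th to 75th percentiles and thin lines the 10th to 90th, with the number of regions on top; the median is 2.25 in 1 library and 6.76 in 4, against 5.75 at protein-coding starts.

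Regions seen in a single library differed in CpG by which library it was. Those of K4-K119 replicate 1 had a median of 4 CpG per 100 bp and 64.4% were CpG-island-like. Those of K4-K119 replicate 2 had a median of 0.75 with 5.39% island-like, and those of K119-K4 replicates 1 and 2 had medians of 1.5 and 1.2 with 9.08% and 8.94%. A peak of 10 or more reads was present at 1018 of the 2300 regions of K4-K119 replicate 1 alone (44.3%), but at 6 of 464 of K4-K119 replicate 2 alone (1.29%) and at 18 of 595 and 30 of 1063 of K119-K4 replicates 1 and 2 alone (3.03% and 2.82%). Within K4-K119 replicate 1, regions below 10 reads still had a median of 3.25 CpG per 100 bp, and those at or above it had 4.83. At chr2:90323001-90326400, input reads were 11 and 11 in the K4-K119 pair and 11 and 7 in the K119-K4 pair. The log2 folds there were 7.42 and 2.44, against 2.83 and 1.29, so reads were not scaled against input alike. The part that this scaling has in the CpG values was not tested. Over all intergenic regions, the median was 1.5 CpG per 100 bp without K4-K119 replicate 1.

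The 10 highest-ranked regions with at least 10 reads and a log2 fold above 1 in each library and no IgG-IgG peak, of 36 such regions, were all CpG-island-like. The strongest was chr2:90323001-90326400, far from its nearest protein-coding gene, RPIA (ribose 5-phosphate isomerase A), at 1631 kb. Its K4-K119 reads were 620 and 236, against K119-K4 reads of 370 and 62. Its 470 CpG were the most of any intergenic region. The next, chr1:144882401-144884000, lay 71.4 kb from SRGAP2B, a partial human duplicate of the SRGAP2 gene for a regulator of dendritic spine maturation. It held K4-K119 reads of 265 and 132, against K119-K4 reads of 318 and 115. The third, chr9:137127001-137130900, lay 7.45 kb upstream of GRIN1, which encodes the obligate NMDA receptor subunit, and held K4-K119 reads of 220 and 103, against K119-K4 reads of 179 and 76. In all of these replicate 1 of either order gave more reads than its replicate 2.

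The remaining 7 lay nearest to a mixed group of genes. A region 28.5 kb from ARID1B, a SWI/SNF subunit gene, at chr6:157235101-157237000, held K4-K119 reads of 201 and 55, against K119-K4 reads of 101 and 33. A region 52.6 kb upstream of KDM7A, a histone demethylase gene, at chr7:140229601-140232300, held K4-K119 reads of 216 and 78, against K119-K4 reads of 180 and 23. A region 24.0 kb upstream of CBFA2T3, a transcriptional corepressor gene, at chr16:89001201-89004100, held K4-K119 reads of 167 and 78, against K119-K4 reads of 138 and 92. The others lay nearest to SHISAL1, ARHGEF1, CCDC74A and RREB1. The SHISAL1 region overlapped a protein-coding gene model of that name in RefSeq, although not in GENCODE, as did 148 intergenic regions (2.99%) for RefSeq protein-coding genes in general.

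**Figure D2:**
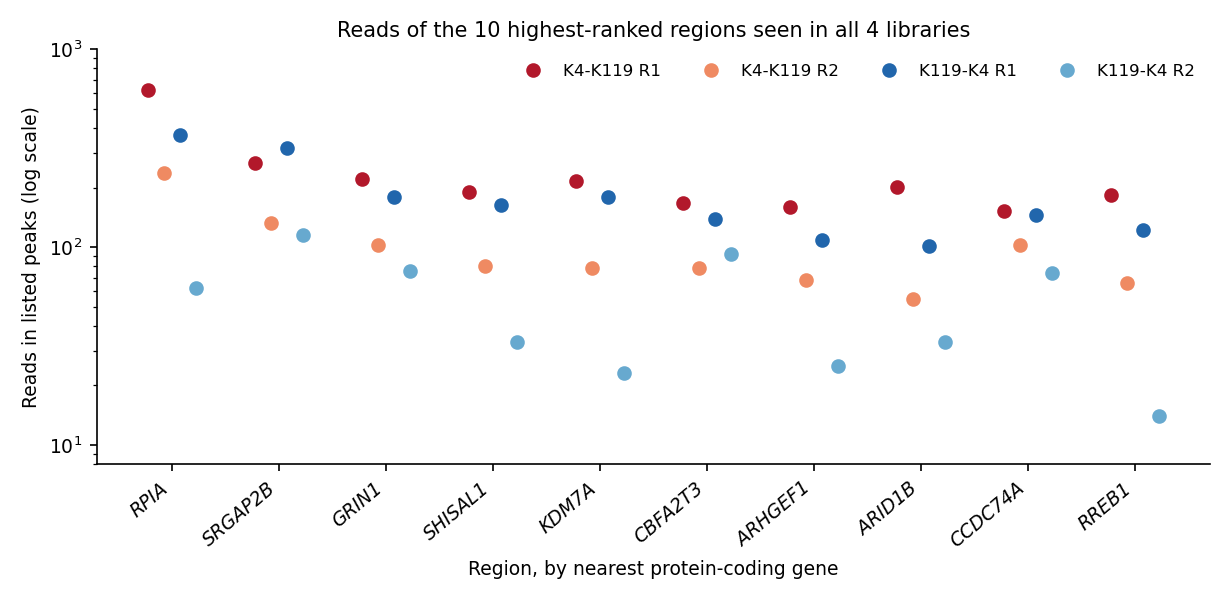
Reads in listed peaks (vertical axis, log scale) of the 10 highest-ranked intergenic regions, each named by its nearest protein-coding gene, in the 4 reChIP libraries (R1 and R2, replicates 1 and 2). The RPIA region is highest with 620 reads in K4-K119 replicate 1, and at all 10 regions replicate 1 lies above replicate 2 of the same order.

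The repeat unit of 12 letters in capitals in the RPIA and SRGAP2B sequences, in which 1 position may be any base, was picked after these data had been seen and then searched on both strands with overlapping copies counted, so that its count is a description. It occurred 1153 times on the 22 autosomes and X, and 344 of these copies (29.8%) lay in intergenic regions and 561 (48.7%) in any merged region. At least 3 copies were present in 29 intergenic regions, in 21 of 2521 regions at noncoding starts, in 0 of 3480 regions in gene bodies and in 0 of 17849 at protein-coding starts. The 29 regions had a median of 11.5 CpG per 100 bp. They were on 8 chromosomes, with 10 on chromosome 9 and 7 on chromosome 2, and 26 of them lay within 5 Mb of alpha satellite, placed here as windows of 100 kb with at least 10 CENP-B boxes, the binding motif of the centromere protein CENP-B. Of the 68 intergenic regions with a peak in all 4 libraries, 10 (14.7%) held at least 3 copies, and of the 4422 in 1 library, 10 (0.226%) did so.

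Every one of these 29 regions had a listed peak in K4-K119 replicate 1, and none had one in either IgG-IgG library. A peak of 5 or more reads was present at 28 and 17 of them in K4-K119 replicates 1 and 2 and at 19 and 11 in K119-K4 replicates 1 and 2. Their reads had medians of 23 and 9 in K4-K119 and of 18 and 3 in K119-K4. They held 4.42% and 8.81% of all reads at intergenic regions in the K4-K119 pair and 9.54% and 3.15% in the K119-K4 pair. Without K4-K119 replicate 1, the rule still found 21 such regions. Copies of a repeat resemble one another, and bwa-mem, used at default parameters, puts a read that matches several copies equally well at one of them, so that reads of 1 copy may come from others. A filter on such reads is not given in the sources used here.

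tRNA genes were near 123 intergenic regions (2.49%, interval 2.07% to 2.96%), counted within 500 bp of one of the 443 tRNA genes that RefSeq places on these chromosomes. Regions at protein-coding starts did so in 0.336% of cases, regions at noncoding starts in 1.79% and regions in gene bodies in 0.316%. Of points placed every 1 kb along the genome that met the same annotation rule, 0.0186% lay within 500 bp of a tRNA gene. The 123 regions included 68 on chromosome 6, which carries 155 of the 443 tRNA genes. In all, 124 tRNA genes (28.0%) had an intergenic region within 500 bp. The 1500 bp rule used GENCODE starts, and these RefSeq tRNA genes were not among them. Counted as starts, they would have taken the 123 regions out of the set, so the shares by class depend on this choice.

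The sequences of 4 such tRNA genes are shown with the B box in capitals, since this internal promoter element sets tRNA genes apart from the promoters of mRNA genes. They are from hg38 at RefSeq coordinates, 5′ to 3′ on the strand on which the B box reads.
TRR-CCG1-3, chr16:3150674-3150746, + strand: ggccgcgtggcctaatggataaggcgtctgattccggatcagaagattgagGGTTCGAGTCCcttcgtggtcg
TRT-CGT4-1, chr17:31550074-31550145, + strand: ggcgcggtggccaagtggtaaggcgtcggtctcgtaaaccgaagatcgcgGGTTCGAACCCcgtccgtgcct
TRG-GCC1-3, chr1:161458108-161458178, + strand: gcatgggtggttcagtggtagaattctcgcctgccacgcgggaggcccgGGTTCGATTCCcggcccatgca
TRY-GTA5-3, chr14:20653099-20653192, - strand: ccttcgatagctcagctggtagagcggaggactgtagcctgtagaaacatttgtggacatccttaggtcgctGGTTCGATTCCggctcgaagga
The B box letters, read on both strands, occurred in 247 of the 443 tRNA genes (55.8%), in 41 intergenic regions (0.829%) and in 1.496% of regions at protein-coding starts, or per kb 0.0142 in intergenic regions and 0.00997 at protein-coding starts.

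Since 105 of the 123 regions entered the set through K4-K119 replicate 1 alone, the split by library is fixed largely by the 5-read rule and is a description. That library had a peak of 5 or more reads at 122 of the 123, against 8 for K4-K119 replicate 2 and 8 and 7 for K119-K4 replicates 1 and 2. Neither IgG-IgG library had such a peak there. Without K4-K119 replicate 1, 17 intergenic regions lay near a tRNA gene. Over all 443 tRNA genes, whatever lies around them, 53.3% (interval 48.5% to 58.0%) had a peak of 5 or more reads within 500 bp in K4-K119 replicate 1 and 14.0% (10.9% to 17.6%) in replicate 2, against 11.5% (8.69% to 14.9%) and 7.45% (5.18% to 10.3%) in K119-K4 replicates 1 and 2. In IgG-IgG, 0 of 443 had one in either library, which allows a share of up to 0.829%. By comparison, 71.8% and 42.4% of protein-coding genes had such a peak within 500 bp of a start for K4-K119, and 47.8% and 35.3% for K119-K4. These shares describe the 4 libraries. The part that the depth of K4-K119 replicate 1 and its scaling of reads against input have in them was not tested.

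The peaks lay beside the tRNA genes more than over them. In K4-K119 replicate 1, peaks of 5 or more reads covered the middle of 54 tRNA genes, but 130 and 138 tRNA genes at 500 bp to either side. In K4-K119 replicate 2 they covered 19 at the middle and 32 and 34 at 500 bp, in K119-K4 replicate 1 they covered 9 and then 23 and 27, and in K119-K4 replicate 2 they covered 1 and then 15 and 15. All 4 reChIP libraries thus had fewer peaks at the gene than beside it. tRNA genes of a family resemble one another, and the part that the placing of reads matching several copies has in this dip was not tested. The region beside TRR-CCG1-3, at chr16:3149601-3150500, held K4-K119 reads of 75 and 36, against K119-K4 reads of 53 and 0. The region at chr14:20630301-20633900, over TRT-TGT4-1 and TRP-TGG1-1, had 165 and 88 reads in K4-K119 and no listed peak in either K119-K4 library. The region beside TRG-GCC1-3, at chr1:161457201-161457800, had a peak of 5 or more reads in all 4 libraries, with K4-K119 reads of 35 and 25, against K119-K4 reads of 15 and 6.

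**Figure D3:**
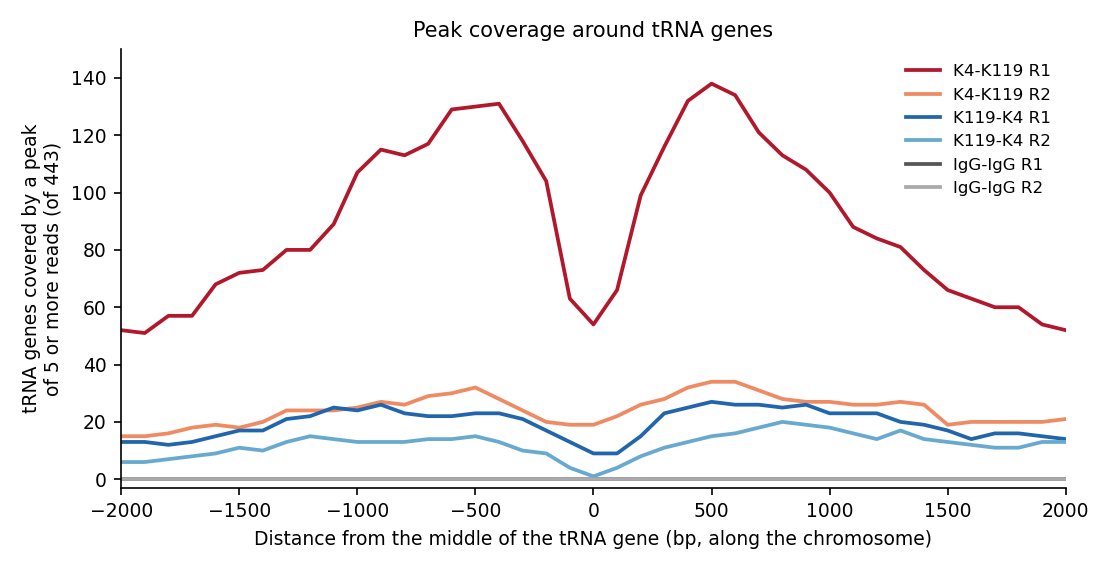
Number of the 443 RefSeq tRNA genes (vertical axis) covered by a peak of 5 or more reads at each distance from the middle of the gene, in bp along the chromosome, for the 6 libraries. K4-K119 R1 reaches 130 and 138 genes at 500 bp to either side and 54 at the middle, and both IgG-IgG libraries stay at 0.

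Intergenic regions were unevenly placed. They fell in 1807 windows of 1 Mb, and 639 regions lay in the 44 windows with 10 or more. A run of full windows lay on chromosome 6, where those from 26, 27 and 28 Mb held 21, 52 and 41 regions, of which 12, 36 and 19 lay near a tRNA gene, and K4-K119 replicate 1 had a peak at 20, 51 and 41 of them. The window from 49 Mb on chromosome 22 differed, with 26 regions of which 7 and 3 had a peak in the K4-K119 pair and 6 and 13 in the K119-K4 pair. On chromosome 12, 23 regions lay between 34 and 35 Mb, beside the centromere. Within 5 Mb of a chromosome end lay 16.6% of intergenic regions, against 5.77% of the 1 kb points that met the annotation rule. Without K4-K119 replicate 1 this share was 19.8%. Within 2 Mb of the CENP-B box windows lay 6.67% of intergenic regions, against 8.70% of such points, and 14.7% of those with a peak in all 4 libraries.

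The median distance to the nearest protein-coding start was 46.9 kb, with quartiles of 15.0 and 143 kb, against 141 kb for the 1 kb points. Without K4-K119 replicate 1 the median was 64.5 kb. Within 5 kb lay 460 regions (9.30%), and beyond 500 kb lay 395 (7.98%). A lncRNA gene body was overlapped by 20.7%, and 77.4% overlapped no gene body of any biotype. Altogether 2801 protein-coding genes (14.0% of 19962) were the nearest gene of at least 1 intergenic region.

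Developmental transcription factor genes were frequent among the nearest genes. Of 103 listed, 79 were nearest to at least 1 intergenic region, with 269 regions in all, which is 5.44% of intergenic regions against 2.63% of the 1 kb points and 2.08% of all merged regions. The list's regions had a median of 3.65 CpG per 100 bp at a median distance of 26.8 kb, and 44 of the 269 had a peak in at least 2 libraries. Over all intergenic regions, 89.4% had a peak in 1 library only. Without K4-K119 replicate 1 the list's share of intergenic regions was 5.03%. NR2F2 and NR2F1, orphan nuclear receptor genes of neural and vascular development, had 15 and 10, and the neural regulators PAX2 and SOX2 had 9 each. K4-K119 replicate 1 had a peak at 15, 9, 8 and 9 of these regions, and at SOX2 no other reChIP library had a peak of 5 or more reads. At EN2, an engrailed homeobox gene of midbrain patterning, chr7:155466201-155469300 held K4-K119 reads of 296 and 104, against K119-K4 reads of 77 and 8. Upstream of PAX2, a kidney and midbrain regulator, chr10:100653901-100657200 held K4-K119 reads of 160 and 58, against K119-K4 reads of 73 and 9.

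Wnt, Hedgehog, Notch, BMP and FGF genes were nearest to 92 intergenic regions (1.86%), against 1.12% of the points, with 34 of 78 genes represented, and 1.64% without K4-K119 replicate 1. SHH, the Sonic hedgehog ligand gene, had 10, of which chr7:155786701-155788200 was the strongest, with K4-K119 reads of 114 and 54, against K119-K4 reads of 70 and 21. Near SMAD6, an inhibitory SMAD of the BMP pathway, chr15:66841801-66843700 held K4-K119 reads of 95 and 47, against K119-K4 reads of 77 and 28.

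Other lists gave smaller shares. Neuroendocrine and neuronal genes were nearest to 29 regions (0.586%, against 1.43% of the points), cell cycle genes and oncogenes to 24 (0.485% against 0.421%), epithelial and mesenchymal genes to 22 (0.445% against 0.440%), imprinted loci to 20 (0.404% against 0.232%) and pluripotency and germline genes to 11 (0.222% against 0.251%). Lung epithelium genes had 8 regions (0.162% against 0.102%), immune and blood cell genes, as markers of other cell types, had 6 (0.121% against 0.139%), and olfactory receptor genes had 5 (0.101% against 0.0844%). Apart from 3 regions each at developmental and signaling genes, none of these lists held a region with a peak in all 4 libraries. Over all intergenic regions that share was 1.37%, so lists of at most 29 regions are too small to show a lack.

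The widest intergenic region, chr17:79809501-79814400, spanned 4900 bp at 7.82 kb upstream of CBX8, which encodes a chromobox subunit of canonical PRC1. It held K4-K119 reads of 295 and 30, against K119-K4 reads of 207 and 8. Other wide regions lay nearest to NCR2, POU3F2 and GATA3. The NCR2 region, chr6:41371301-41375800, had 395 reads over 30 input reads in K4-K119 replicate 1 and no listed peak in K4-K119 replicate 2 or in either K119-K4 library. Over all intergenic regions, the median width was 500 bp for those in 1 library, 1000 bp in 2, 1300 bp in 3 and 1600 bp in 4.

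The order of the antibodies was compared by reads at the 6535 merged regions of the genome with a listed peak in all 4 reChIP libraries, of which 148 were intergenic. In edgeR's quasi-likelihood fit over all 6535, with Benjamini-Hochberg adjustment, 0 of the 148 differed between K4-K119 and K119-K4 at an adjusted p below 0.05, and so did 0% of all regions. The lowest adjusted p among the 148 was 0.169. At an unadjusted p below 0.05 there were 20 of the 148 (13.5%), against 18.1% of all regions. DESeq2 called 0 of the 148 and 2.49% of all regions (163, of which 23 were higher and 140 lower in K4-K119). With the replicate number as a block, edgeR called 3 of the 148, all higher in K4-K119, and 5.72% of all regions. The methods call the replicates independent, but the labels do not say whether they came from separate cultures, so the p-values measure the spread between these libraries.

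The median log2 fold change of K4-K119 over K119-K4 was 0.61 over the 148, 0.71 at gene body regions, 0.26 at noncoding starts and 0.01 at protein-coding starts, with 0.03 over all regions tested. TMM normalization sets the bulk of tested regions near 0, and 6006 of them were at protein-coding starts. The values near 0 are thus fixed by the normalization. With upper-quartile normalization the medians were 0.75 over the 148 and 0.17 over all regions. Both K4-K119 libraries were above both K119-K4 libraries at 57 of the 148 (38.5%, against 27.1% of all regions), and below both at 10 (6.76%, against 27.1%). The shares of 27.1% over all regions rest on the same normalization. Since a listed peak was needed in all 4 libraries, most intergenic regions are not in these counts. Of the 148, only 68 had a peak of 5 or more reads in every library. K4-K119 replicate 1 had such a peak at 2804 of the 4948 intergenic regions. Entry by the 5-read rule may thus tilt these values to K4-K119, and they are descriptions. In the wider set with at least 10 reads summed over the 4 libraries, an unlisted peak counts as 0 reads. The median there was 2.89 over 1845 intergenic regions and 1.18 over all 19962, and 0 and 1 were called. Of these intergenic regions, 1018 had entered by K4-K119 replicate 1 alone, with 10 or more reads there. Such entry and the zeros raise this median by construction, so it does not measure an effect of order. The median of the wider set without K4-K119 replicate 1 was not tested. The median over the 148 was 0.35 without K4-K119 replicate 1. Without K119-K4 replicate 1, in a fit where the lone K119-K4 library is assumed to vary like the other group, 20 of the 148 were called, 19 of them higher in K4-K119, and 897 of all regions were.

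Single regions at the ends of the range were chosen after their values were seen. At chr1:47443801-47445900, 5.76 kb from the forkhead gene FOXD2, reads normalized to the library total over the regions tested (CPM) were 85.4 and 89.5 CPM in K4-K119, against 3.93 and 9.56 CPM in K119-K4, and the groups did not overlap. The log2 fold change was 3.84 ± 0.56 (SE), with an adjusted p of 0.169 in edgeR. At chr1:143326801-143327600, a region of 17.8 CpG per 100 bp that lay 578 kb from the histone gene H3-7, normalized reads were 13.2 and 6.88 CPM in K4-K119, against 51.1 and 59.8 CPM in K119-K4, which also did not overlap. Its log2 fold change was -2.38 ± 0.52 (SE), with an adjusted p of 0.176 in edgeR.

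**Figure D4:**
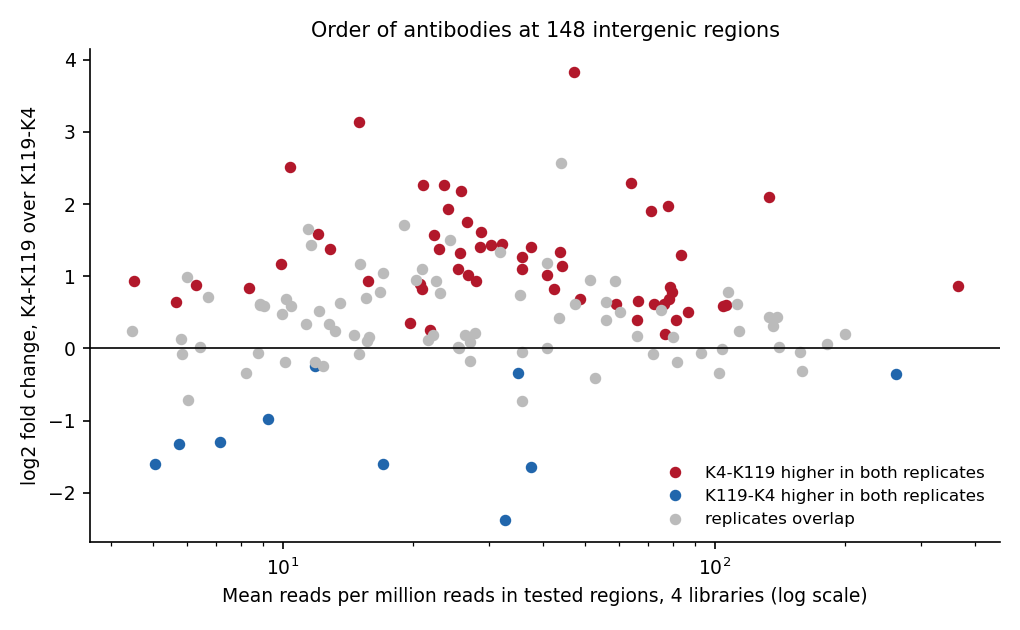
Log2 fold change of K4-K119 over K119-K4 from edgeR (vertical axis) against the mean normalized reads (CPM) of the 4 libraries (horizontal axis, log scale) for the 148 intergenic regions with a listed peak in all 4. Red points (57) had both K4-K119 replicates above both K119-K4 replicates, blue points (10) had them below, gray points overlapped, and no point was called in the fit without a replicate block.

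Some regions had listed peaks in one order alone. Since listing depends on reads against input, a peak that is not listed does not show a lack of reads. Peaks of 5 or more reads in both K4-K119 replicates and no listed peak in K119-K4 were found at 61 intergenic regions, and the converse at 10. These are 1.23% and 0.202% of intergenic regions, against 2.23% and 0.104% of all merged regions and 2.82% and 0.028% of those at protein-coding starts. At chr2:174341501-174344500, 6.55 kb from SP9, a zinc finger gene of limb and forebrain development, K4-K119 had 397 and 97 reads and K119-K4 had none listed. The K4-K119 input reads there were 28 and 17, with log2 folds of 5.43 and 0.53. At chr17:9002401-9005000, 16.5 kb upstream of NTN1, the gene for the guidance cue netrin, K4-K119 had 159 and 71 reads and K119-K4 had none listed, although RefSeq counts this stretch within a protein-coding NTN1 model. The converse regions were weak. The strongest of them, chr10:133081601-133082500, 5.42 kb upstream of the receptor gene ADGRA1, had no listed peak in K4-K119, against 11 and 6 reads in K119-K4.

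IgG-IgG peaks were rare at intergenic regions. At least 1 listed IgG-IgG peak overlapped 126 of 4948 (2.55%, interval 2.13% to 3.03%), with 59 in replicate 1, 69 in replicate 2 and 2 in both. The share was 2.41% in gene bodies, 3.29% at noncoding starts and 4.29% at protein-coding starts, where regions are wider. Per Mb covered, intergenic regions held 40.6 with an IgG-IgG peak and protein-coding start regions held 27.3. The usual IgG-IgG peak at an intergenic region had 2 reads (51 of 59 and 62 of 69), and 2 regions had a peak of 5 or more. One of these, chr2:32866601-32867200, inside the lncRNA gene LINC00486 and without a CpG, held K4-K119 reads of 11 and 25, against K119-K4 reads of 2 and 37, and IgG-IgG reads of 70 and 0. The other, chr2:153222201-153222400, held K4-K119 reads of 33 and 23, against K119-K4 reads of 0 and 29, and IgG-IgG reads of 6 and 4, and it lies within a RefSeq model of GALNT13.

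Very high reads were not always matched by a listed peak in every other library. A listed peak depends on reads against input, so a missing one does not show a lack of reads. At chr2:32916101-32916700, also in LINC00486, K4-K119 replicate 1 had 638 reads, the most of any intergenic region in 1 library, and no other reChIP library had a listed peak. K4-K119 replicate 1 had 179 input reads there, with a log2 fold of 3.44. At chr21:8219801-8220300, 7.23 kb from the 5.8S ribosomal RNA gene RNA5-8SN2, K4-K119 had 0 and 520 reads and K119-K4 had 0 and 517 reads, so that the 2 replicates numbered 2 had nearly equal reads and the 2 numbered 1 had none listed. Either replicate 2 had 53 input reads there. Neither region had an IgG-IgG peak, and whether they fall in a blacklisted part of the genome was not tested.

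As a share of each library's own peaks of 5 or more reads, intergenic peaks made up 11.4% and 7.88% in the K4-K119 pair and 8.17% and 12.8% in the K119-K4 pair, against 43.8% (21 of 48) and 42.5% (17 of 40) in IgG-IgG. All 4 reChIP libraries lay below both IgG-IgG libraries, and the difference of means was -33.1 percentage points (two-sided exact permutation test over libraries, p = 0.133, the smallest that 4 against 2 libraries allow). With every listed peak, most of them of 2 reads, the means were 42.6% in reChIP and 48.3% in IgG-IgG. Between the orders, the means were 9.64% in K4-K119 and 10.5% in K119-K4, a difference of -0.82 percentage points that was within the spread of the replicates (exact permutation p = 0.667, where the smallest possible is 0.333).

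Short sequence motifs, searched on both strands, are given as descriptions. The GC box GGGCGGGG was present in 14.0% of intergenic regions, in 3.66% of windows 10 kb before them and in 52.1% of regions at protein-coding starts, and in 58.3% of the 216 intergenic regions with a peak in 3 or 4 libraries. The core letters of the CTCF motif were present in 0.768%, against 0.141% of those windows and 2.66% of protein-coding start regions. The AP-1 letters TGACTCA were present in 7.80%, against 8.65% of the windows and 13.8% of protein-coding start regions, which are wider. Per kb, AP-1 matches numbered 0.134 in intergenic regions, 0.150 in the windows and 0.102 at protein-coding starts. The E box CACGTG was present in 9.34%, against 7.54% and 23.8%. Per kb, E box matches numbered 0.170 in intergenic regions, 0.135 in the windows and 0.192 at protein-coding starts. In the same order, CTCF matches numbered 0.0126, 0.00225 and 0.0174 per kb, and GC box matches 0.404, 0.0854 and 0.825. The telomeric unit TTAGGG repeated without a break was present in 13 intergenic regions (0.263%), in 1 flanking window and in 11 protein-coding start regions (0.0616%).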

How the data were processed

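Sequential chromatin immunoprecipitation was measured in 6 libraries of NCI-H661 cells, with 2 libraries for either antibody order and 2 for control immunoglobulin. Per the labels and the study's methods, the authors used Trim Galore 0.6.6 for trimming, BWA 0.7.13 for alignment to hg38, and Picard 2.6.0 and SAMtools 1.9 for the alignments, and called peaks per library with EPIC2 against genomic input in 100 bp bins. The deposited read counts and input read counts of each peak are not scaled. The log2 fold, as deposited, sets a peak's reads against its input after scaling by library size, the p-value and FDR are the peak caller's, and the score is the log2 fold limited at a maximum. A region's reads are the sum over listed peaks that overlap it, and 0 means no listed peak.

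Regions were classified with GENCODE v44, and tRNA genes and gene names of RefSeq (GRCh38.p14) were added. Genes were named by rank among regions with at least 10 reads and a log2 fold above 1 in each reChIP library, by order, width, CpG number, IgG-IgG reads and membership of gene lists. Members and lists were chosen with earlier results of these data known, and the tRNA and repeat counts, the alternatives for nearest genes, distances and chromosome ends, the regions with most reads and those named for order were added after values were seen. Shares have exact Clopper-Pearson intervals of 95%. Order was tested with edgeR 4.0.16 (quasi-likelihood, TMM) in R 4.3.3, with DESeq2 1.42.0 as an alternative; the code was tested on simulated data. Python 3.11.15, pandas 2.3.3, scipy 1.17.1 and pysam 0.24.0 were used. The alternatives were other read minima, filters, distances, merging, gene definitions and normalizations, a replicate block, and leaving out each library. The authors' blacklist was not applied, and the peak lists do not give the depth of whole libraries. By the deposited log2 folds, depth relative to input differed. At chr1:144882401-144884000, 265 reads over 4 input reads gave a log2 fold of 7.66 in K4-K119 replicate 1. There 318 reads over 4 input reads gave 4.07 in K119-K4 replicate 1. Under scaling by library size, K4-K119 replicate 1 was thus the shallower relative to input. One region that the naming rule picks is not reported here.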

Additional observations from a re-analysis of the deposited data

How the results depend on the processing

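The counts of intergenic regions rested on weak peaks and on K4-K119 replicate 1. With at least 10 reads per peak there were 1537 regions, 8.12% of all merged regions, of which 2.93% had a peak in all 4 libraries, the median was 5.25 CpG per 100 bp and 3.45% overlapped an IgG-IgG peak. With at least 1 input read per peak there were 2698 regions (11.6%, median 4.21 CpG per 100 bp). The share was 13.2% over 5 kb from every start, 13.3% without any gene body, and 18.7% when peaks within 1 kb were merged. Leaving out regions with an IgG-IgG peak brings that overlap to 0% by construction. Leaving out each reChIP library gave 2684 to 4495 regions, 14.7% to 16.0% of merged regions, and 1.85% to 4.68% with a peak in every remaining library. Regions near a tRNA gene numbered 17 without K4-K119 replicate 1 and between 83 and 125 under the other alternatives.

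The difference in intergenic share of peaks between K4-K119 and K119-K4 turned to 2.93 percentage points at 10 or more reads and 1.07 for shares of reads, and ran between -3.12 and 1.47 when a library was left out, with 0.94 without K4-K119 replicate 2 and 1.47 without K119-K4 replicate 2. The cause was not tested. The number of intergenic regions called for order ran between 0 and 20 when a library was left out, with 20 without K119-K4 replicate 1 and 3 without K119-K4 replicate 2. With the replicate number as a block, 3 of 148 regions and 374 of all regions were called, against 0 of all regions without the block. The methods describe batch replication for doxycycline contrasts, and no source says it of these libraries, whose same-numbered deviations correlated at 0.24 over regions. DESeq2 called 163 of all regions but 0 intergenic ones. Of 150 alternatives over 14 results, 111 stayed within the tolerance set for that result (1.5 times for counts, the 95% interval for shares, 1 SD over libraries for medians, and the same direction for differences), 35 went past it and 4 turned the direction. The tolerance is wide for medians, and the median CpG without K4-K119 replicate 1, 1.5 per 100 bp, lies within it.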
